A study of Mus musculus with 6 samples.

Results

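Fgf12, Lrp1b, Myo16, Myo3b, Tecrl, Pdzrn4 and Sez6l are 7 mouse genes that each lie nearest to a pair of sites where estrogen receptor alpha (ERα) was called in all 3 estradiol libraries and in none of the 3 vehicle libraries. They are 7 of 21887 protein-coding genes on the assembled chromosomes. Peaks of the 6 deposited lists that overlapped or touched were merged into regions, and each region was given to the nearest protein-coding gene span, up to 500 kb away. An estradiol-only region had a peak in 3 of 3 estradiol and 0 of 3 vehicle lists. Of 39374 regions, 290 met that rule (0.737%), and 14 genes (0.064% of all genes) were nearest to 2 of them. None was nearest to more. The 7 genes described here are on a given list of names and hold 14 estradiol-only regions among 117 regions and 190 peaks in all. The other 7 genes with 2 such regions serve for comparison. Because the presence of peaks in estradiol and vehicle lists chose these genes, their presence, counts and heights are given as a description and no test was run on them.

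The study profiled ERα by CUT&RUN, in which an antibody tethers a nuclease to the bound protein in isolated nuclei and the cut fragments are sequenced. The estradiol group had received 5 µg estradiol benzoate, an ester of estradiol, under the skin, and the vehicle group corn oil. In both groups the animals were C57/BL6 males gonadectomized at 10 to 12 weeks of age, used 3 weeks later, and nuclei of limbic brain tissue were taken 4 hours after injection. There were 3 libraries per group, and the labels do not say whether they came from separate animals or pooled tissue. Peak lists measure no expression, so the tissue could not be checked against cell type markers.

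ERα is a nuclear receptor that, with estradiol bound, recognises a palindromic DNA element and often sits at enhancers far from the genes it controls. In the limbic brain it is best known for its part in reproductive, social and energy-related behaviour. The 7 genes share no pathway. Fgf12 encodes a fibroblast growth factor homologous factor, which stays inside the cell and modulates voltage-gated sodium channels. Lrp1b encodes a very large endocytic receptor of the LDL receptor family, and Sez6l a neuronal membrane protein with CUB and Sushi domains that is cut by the protease BACE1. Myo16 and Myo3b encode unconventional myosins, of which Myo3b carries a kinase domain. Pdzrn4 encodes a RING finger protein with PDZ domains, and Tecrl a relative of enoyl-CoA reductases best known from heart muscle.

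The estradiol lists held 11082, 14123 and 17558 peaks in replicates 1, 2 and 3, and the vehicle lists 5421, 13717 and 20541. Vehicle replicate 1 had the shortest list. Replicate 3 of both groups carries another style of peak name and was taken as a separate batch. Peak height is given as the authors' −log10 q, whose lowest value per list was 2.00 to 2.01, and as the number of fragments at the summit, estimated from the fold and p-value in the lists. The smallest called summit held 4 fragments in each list and the median 6, so the lack of a peak does not show the lack of binding. In bulk tissue, fewer cells with bound receptor and less binding per cell cannot be told apart. The gene table gives spans and not exons, so a position inside a gene is not split into exon and intron.

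Fgf12 had the strongest pair. Its higher region, on mm10 chromosome 16 at 28089439 to 28089838, had −log10 q of 26.4, 34.7 and 62.8 in estradiol replicates 1, 2 and 3. The other, at 27907951 to 27908178, reached 5.78, 23.7 and 15.1, with 6, 17 and 14 fragments at the summit. Both regions thus stood well above the threshold in replicates 2 and 3, while the second was low in replicate 1. Fgf12 spans 28157783 to 28753243 (595 kb) on the minus strand, so both regions lay beyond its 3′ end, at 67.9 kb and 249.6 kb. The farther region fell inside the long non-coding RNA gene Gm10823, and the next protein-coding gene, Ccdc50, was 456 kb from it. The summits of the 3 estradiol peaks lay within 11 bp of each other in the stronger region and within 3 bp in the weaker.

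Between the Fgf12 pair lay 181 kb with 1 other region, a peak of estradiol replicate 1. A further region at 28132404 to 28132672, 25.1 kb from the gene, missed the rule by 1 library. It had −log10 q of 13.6 and 6.66 in estradiol replicates 2 and 3 and no peak in estradiol replicate 1 or in a vehicle list. Inside the gene the picture differed. The region at 28490694 to 28490762 had −log10 q of 2.05 and 5.72 in estradiol replicates 1 and 2, against 7.71 and 7.61 in vehicle replicates 2 and 3. The region at 28668947 to 28669035 was held by estradiol replicates 1 and 2 (2.40 and 6.48) and by vehicle replicate 3 (6.77). No vehicle peak at Fgf12 was found in vehicle replicate 1.

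**Figure D1:**
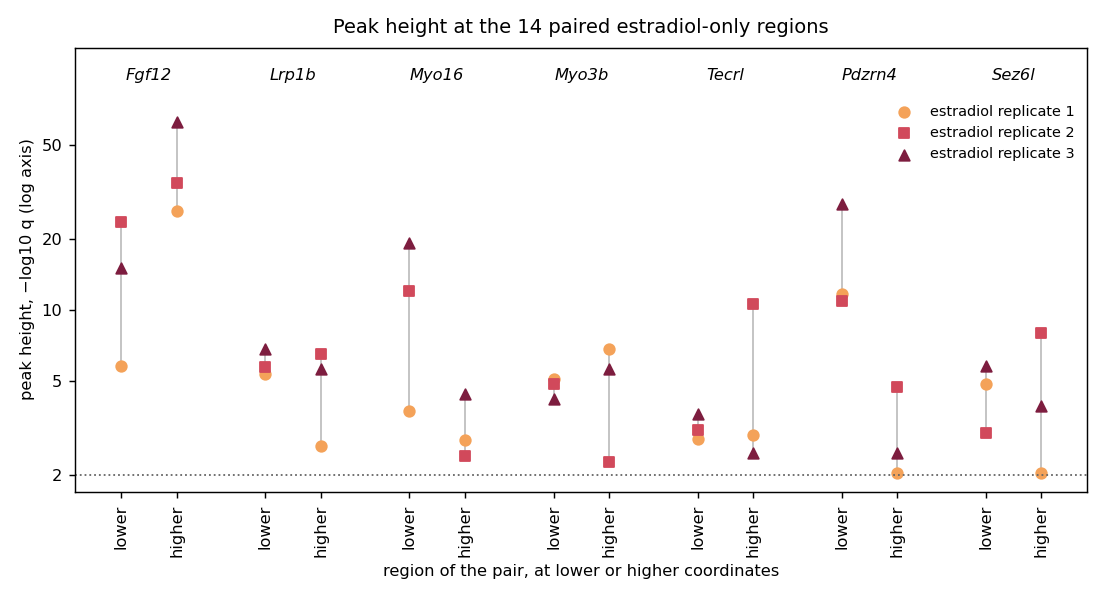
Peak height (−log10 q, log axis) of the 14 paired regions in the 3 estradiol libraries, by gene and by the lower or higher coordinates of the region. The dotted line is the threshold of 2, and a grey line joins the 3 values of a region. Fgf12 alone has both regions above 5 in each library, and the lowest points, at 2.05, belong to Pdzrn4 and Sez6l in estradiol replicate 1.

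Lrp1b, the longest of the 7 genes at 2058 kb (chromosome 2, 40595290 to 42653598), had the widest pair. Its regions were 1.67 Mb apart. The region at 40342191 to 40342462, outside the gene by 253 kb, had −log10 q of 5.37, 5.75 and 6.82 in estradiol replicates 1, 2 and 3. The region inside the gene, at 42008332 to 42008524, had 2.65, 6.51 and 5.62 from 4, 8 and 8 fragments. The heights of the pair were alike, with medians of 5.75 and 5.62. The summits were not, lying up to 161 bp and 147 bp apart, and no base of the region inside the gene was shared by all 3 estradiol peaks. Another Lrp1b region, at 41595245 to 41595372, had peaks of 6.73 and 7.61 in estradiol replicates 2 and 3 and in no vehicle list. Apart from the pair, Lrp1b had 1, 4 and 5 regions in estradiol replicates 1, 2 and 3, against 1, 1 and 3 in vehicle replicates 1, 2 and 3, where −log10 q reached at most 4.23.

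Sez6l (chromosome 5, 112419151 to 112578535, minus strand) had a modest pair beside a much higher region that vehicle libraries shared. The region at 112411631 to 112411819 lay 7.33 kb beyond the 3′ end, with −log10 q of 4.85, 3.02 and 5.80 in estradiol replicates 1, 2 and 3. The region inside the gene, at 112507785 to 112507887, had 2.05, 8.0 and 3.92, with 4, 10 and 7 fragments. The 3′ region was also within 16.3 kb of Asphd2, so its assignment rests on a difference of under 10 kb. The highest Sez6l region lay elsewhere in the gene, at 112552000 to 112552367, and was held by 5 libraries. It had −log10 q of 10.4, 15.4 and 24.1 in estradiol replicates 1, 2 and 3, against 3.28 and 10.8 in vehicle replicates 2 and 3. A region at 112433133 to 112433205 was held by vehicle replicates 2 and 3 (5.43 and 4.38) and by no estradiol list.

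The myosin genes held both of their regions inside the gene. Myo16 (chromosome 8, 10153911 to 10634742, plus strand) had the closest pair, 9.12 kb apart, at 77.3% and 79.3% of the way from the gene's start. The region at 10525679 to 10525875 had −log10 q of 3.75, 12.1 and 19.3 in estradiol replicates 1, 2 and 3, and its 3 peaks shared 189 of 197 bp. Its partner at 10534994 to 10535083 had only 2.81, 2.41 and 4.42 from 5, 4 and 7 fragments, and no base was common to the 3 peaks. Between them lay 2 small regions, each with a peak in 1 vehicle list.

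Myo16 also held the highest shared region, at 10474376 to 10474878, with −log10 q of 10.2, 25.9 and 22.6 in estradiol replicates 1, 2 and 3, against 11.7 and 10.4 in vehicle replicates 2 and 3. It was absent from the short list of vehicle replicate 1. Its summits held 13, 29 and 28 fragments in the estradiol libraries and 12 and 12 in the vehicle libraries. A cluster of 4 small regions at 10363954 to 10364280 held peaks of each estradiol list and of no vehicle list. They did not overlap, and became 1 further estradiol-only region of Myo16 when peaks within 100 bp were merged, a distance chosen after seeing the data. The best −log10 q in that cluster was 3.61, 6.43 and 3.47 in estradiol replicates 1, 2 and 3. The region at 10130957 to 10131090, 22.8 kb before the gene, had 4.02 in estradiol replicate 1 against 3.33, 2.32 and 7.73 in vehicle replicates 1, 2 and 3. The region at 10414985 to 10415070 had 2.18 and 4.28 in estradiol replicates 1 and 2, against 2.699 and 6.58 in vehicle replicates 2 and 3. The region at 10734932 to 10735210, past the gene's end, had 6.87 and 3.59 in estradiol replicates 2 and 3, against 4.09 in vehicle replicate 3. None of these last 3 regions was held by all the estradiol libraries. A further pair of Myo16 regions missed the rule by 1 library without any vehicle peak. They had 6.49 and 8.11 in estradiol replicates 1 and 2 at 10548260 to 10548366, and 3.76 and 5.07 in estradiol replicates 2 and 3 at 10579373 to 10579576. A peak of vehicle replicate 2 (2.99), at 10548139 to 10548172, ended 88 bp before the first of them.

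Myo3b (chromosome 2, 70039126 to 70429195, plus strand) had 2 modest regions 36.1 kb apart, at 19.3% and 28.6% of the gene. The region at 70114206 to 70114422 had −log10 q of 5.12, 4.88 and 4.19 in estradiol replicates 1, 2 and 3, from 6 fragments in each. The region at 70150494 to 70150702 had 6.87, 2.27 and 5.62 from 8, 4 and 8 fragments, and the peaks of replicates 1 and 2 were bridged only by that of replicate 3. The highest peaks of the gene lay at 70259788 to 70259905, with 2.25 and 13.4 in estradiol replicates 1 and 3, against 9.54 in vehicle replicate 3. A region at 70168765 to 70168852 had 2.47 in estradiol replicate 3 against 6.65 and 4.15 in vehicle replicates 2 and 3. At 70260750 to 70260846 estradiol replicates 2 and 3 had 3.01 and 4.19, with no vehicle peak.

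Pdzrn4 (chromosome 15, 92396810 to 92771827, plus strand) had a strong and a weak region 194 kb apart. The strong one, at 92390717 to 92390931, lay 5.88 kb before the gene's start and had −log10 q of 11.7, 10.9 and 28.1 in estradiol replicates 1, 2 and 3, with 11, 10 and 23 fragments. Its summits lay within 17 bp. The weak one, at 92584730 to 92584769 in the middle of the gene, was 40 bp wide and had 2.05, 4.73 and 2.47 from 4, 6 and 5 fragments, with summits within 7 bp. Of 7 regions at the 7 genes that missed the rule by 1 library, Pdzrn4 held the only one with 3 estradiol peaks. It lay at 92571031 to 92571145, with 3.91, 5.07 and 3.96 in estradiol replicates 1, 2 and 3 against 3.68 in vehicle replicate 2. Beyond the gene, a region at 92973850 to 92973926 was held by vehicle replicates 2 and 3 (5.53 and 6.34) alone.

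Tecrl (chromosome 5, 83278122 to 83355195, minus strand), the shortest of the 7 genes at 77.1 kb, had a low pair, with median −log10 q of 3.12 and 2.96. Both regions lay far beyond its 3′ end, at 289 kb and 242 kb, with 46.9 kb between them. The region at 82989164 to 82989293 had −log10 q of 2.83, 3.12 and 3.62 in estradiol replicates 1, 2 and 3, with 4, 4 and 5 fragments, and no base was shared by the 3 peaks. A peak of vehicle replicate 2 (2.61, 4 fragments) began 3 bp beyond its last base, so the region counted as estradiol-only by a gap of that size. Merging peaks within 100 bp removed this region and left Tecrl with 1. Its partner, at 83036218 to 83036471, had 2.96, 10.6 and 2.47 in the same order, with 9 fragments in replicate 2 and 4 in the others, and lay 4.16 kb from the pseudogene Gm43217. The next protein-coding gene beyond Tecrl was Epha5, 1065 kb and 1018 kb from the pair. The highest of the other regions, at 83494293 to 83494460, had 5.86 in estradiol replicate 2 alone, and the region at 83217455 to 83217539 had 4.97 and 3.71 in estradiol replicates 2 and 3 with no vehicle peak. Vehicle peaks were few at this gene, with 1, 2 and 1 regions in replicates 1, 2 and 3.

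**Figure D2:**
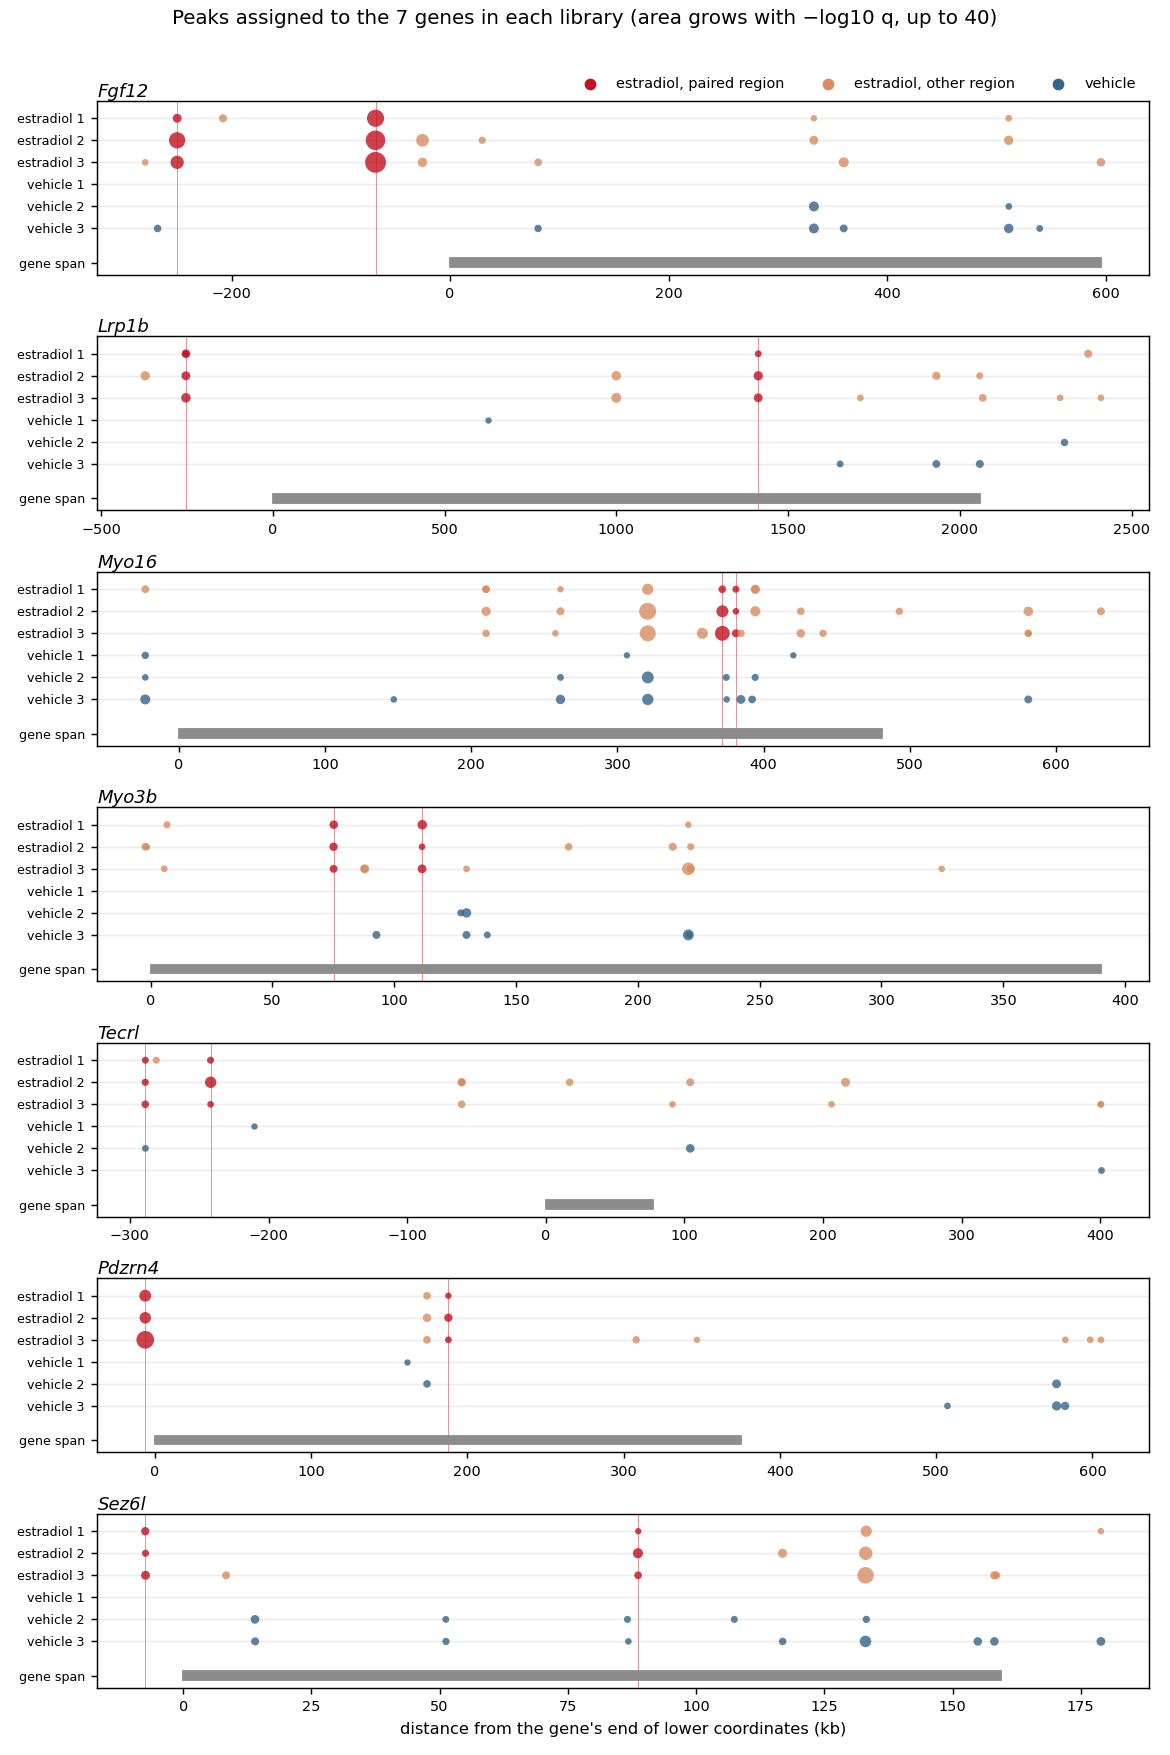
Peaks assigned to each of the 7 genes in the 6 libraries, by distance in kb from the gene's end of lower coordinates, with the gene span as a grey bar. Red marks the paired regions, orange the estradiol peaks elsewhere, blue the vehicle peaks, and the area grows with −log10 q up to 40. Pairs lie inside the gene at Myo16 and Myo3b and outside it at Fgf12 and Tecrl, and vehicle replicate 1 has no peak at Fgf12, Myo3b or Sez6l.

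Over the 14 regions the lengths between members of a pair ran from 9.12 kb at Myo16 to 1666 kb at Lrp1b, with a median of 96.0 kb. With a library left out, the smallest gap at each gene that still had at least 2 estradiol-only regions was taken. Its median was 46.9 kb without estradiol replicate 1 or without vehicle replicate 2, and 181 kb without estradiol replicate 3. Some genes then had 3 regions or only 1, so these are not medians over the same pairs. With all libraries, the gap of the pair was at most 200 kb at 6 of the 7 genes. Over all 270 gaps between neighbouring estradiol-only regions on a chromosome the median was 4.69 Mb, and 22 (8.15%) were at most 200 kb. This nearness follows in part from the rule, which asked for 2 regions nearest to the same gene. Every pair had between 1 and 6 other regions lying between its members. At 6 of the 7 genes, all but Fgf12, at least 1 of these held a vehicle peak.

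Of the 14 paired regions 7 lay inside a gene (50.0%), as did 138 of the other 276 estradiol-only regions (50.0%). None of the 14 lay within 1 kb of an end of its gene, against 40 of the other 276 (14.5%). Outside their genes, 5 regions were on the 3′ side (both of Fgf12, both of Tecrl and 1 of Sez6l) and 1 on the 5′ side (Pdzrn4), and the table used gave no strand for Lrp1b. The paired regions were not higher as a set than the others. Their median −log10 q over the estradiol lists had a median of 5.25, from 2.47 to 34.7, against 5.21, from 2.08 to 33.0, over the other 276. Median summit fragments were 7 in both. Taking the highest peak of each estradiol library in each of the 14 regions, 13 of these 42 peaks held 4 or 5 fragments and 11 held at least 10. A second peak of estradiol replicate 1, with 4 fragments, lay in the Lrp1b region outside the gene. When only peaks with −log10 q of at least 3 were used, the 7 genes had 7 estradiol-only regions in place of 14, and the whole series 210 in place of 290, and Fgf12 was the only one of the 7 genes with 2. The height was greatest in estradiol replicate 3 at 7 regions, in replicate 2 at 5 and in replicate 1 at 2, while replicate 1 was lowest at 8.

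How far the 3 estradiol peaks of a region coincided was not part of the rule beyond their being merged. The distance between the outermost of the 3 summits had a median of 57.5 bp, from 3 to 161 bp, over the 14 paired regions, against 38.0 bp over the other 276. It was at most 50 bp at 4 regions, both of Fgf12 and both of Pdzrn4, and at 173 of the other 276 (62.7%). In 4 of the 14, at Lrp1b, Myo16, Myo3b and Tecrl, no base was shared by all 3 peaks, against 41 of the other 276 (14.9%). The paired regions were also wider, with a median of 203 bp against 143 bp, and a chain of partly overlapping peaks is wider and more spread by construction. The difference was not tested.

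**Figure D3:**
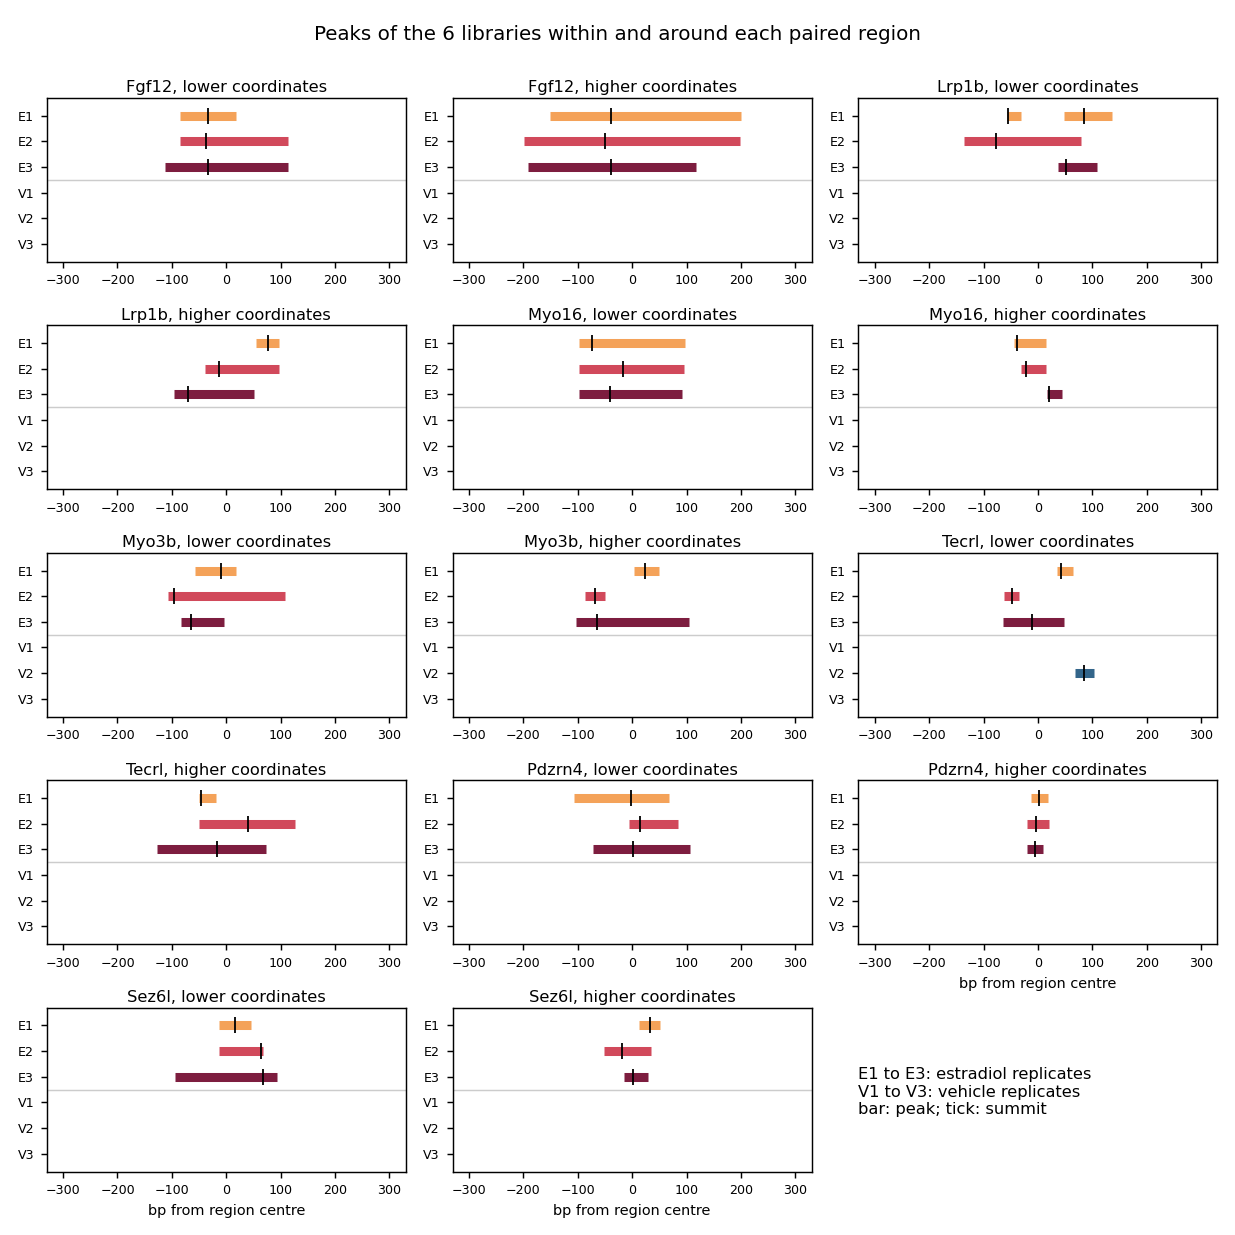
Peaks of the 6 libraries within 330 bp of the centre of each paired region, in bp from the centre, with estradiol replicates above vehicle replicates. Bars span a peak and ticks mark its summit. The summits line up at Fgf12 and Pdzrn4, the 3 estradiol peaks share no base in 4 regions, and a vehicle replicate 2 peak adjoins the Tecrl region of lower coordinates.

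The 7 genes held 103 other regions. Of them 78 (75.7%) were found in 1 library, against 58.9% of all regions. Peaks from estradiol lists alone made up 53 (51.5%), with a background of 32.6% over all regions that were not estradiol-only. Those from vehicle lists alone made up 33 (32.0%), with a background of 32.4%. Over all regions, estradiol-only ones included, these backgrounds were 33.1% and 32.1%. The genes were chosen by this contrast, so nothing is read from the first share. Regions with 2 of 3 estradiol and 0 of 3 vehicle lists numbered 6 (background 2.97%), and those with 2 of 3 vehicle and 0 of 3 estradiol lists 2 (background 2.49%). None was in all 3 vehicle lists and no estradiol list (background 0.112%), and none was in all 6 (background 7.27%). The 2 regions in 5 libraries were those of Myo16 and Sez6l named above.

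Counted per library with the pairs left out, the 7 genes together held 17, 30 and 40 regions in estradiol replicates 1, 2 and 3, against 6, 19 and 34 in vehicle replicates 1, 2 and 3. The groups overlapped, at 29.0 ± 11.5 against 19.7 ± 14.01 (mean and SD, n = 3 each). Per 1000 peaks of the list this came to 1.53, 2.12 and 2.28 in the estradiol and 1.11, 1.39 and 1.66 in the vehicle libraries, and the groups still overlapped. Set side by side by replicate number, the estradiol library was the higher at each of the 3 numbers on both scales, at 40 against 34 regions within the replicate 3 batch. Leaving out the pairs does not undo the choice of the genes by this contrast, so nothing is read from the direction. The labels do not say that libraries of the same number were matched. The number of regions moved with the length of the list, and the part of list length in the difference was not tested. Sez6l had 2, 2 and 4 other regions in the estradiol against 0, 5 and 8 in the vehicle libraries, the only one of the 7 genes with the higher mean in vehicle (2.67 against 4.33). Tecrl had 1, 6 and 5 in the estradiol against 1, 2 and 1 in the vehicle libraries.

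**Figure D4:**
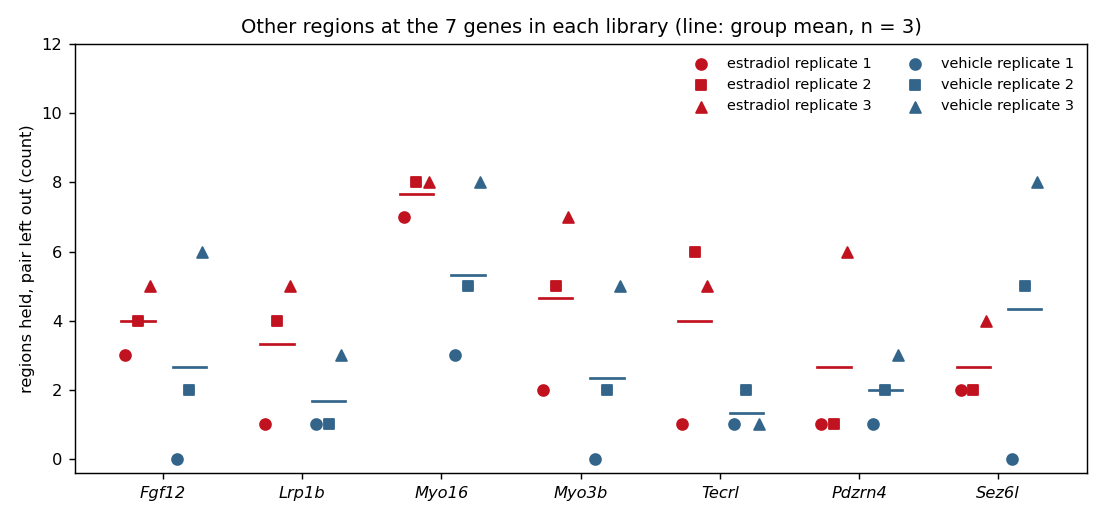
Number of regions held at each of the 7 genes in each library with the paired regions left out (estradiol red, vehicle blue, lines are group means of 3 libraries). The groups overlap at every gene, and the mean is higher in vehicle at Sez6l only.

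Only 2 of the 117 regions touched a promoter window of the table used, 250 bases before to 50 after a start, and none of them was a paired region. Sequences of the paired regions were not used here. RefSeq (GRCm38.p6, the coordinates of mm10) gave 10 windows for 6 of the genes, all but Lrp1b. The bases before the start are shown for both windows with a peak, because these are the windows of the table that a region touched, and capitals mark the peak. The Fgf12 peak came from estradiol replicate 3 alone (5.11, 7 fragments), 104 to 134 bases before the start. The Sez6l peaks came from estradiol replicate 3 (4.81, 8 fragments) and vehicle replicate 3 (5.25, 8 fragments), 87 to 154 bases before the start. That start, at 112577198, lies inside the Sez6l span, so this region is inside the gene, 1183 bp from its 5′ end. Lrp1b, which had no window, held a peak of estradiol replicate 2 (2.82) and a peak of vehicle replicate 3 (4.23) inside its end of higher coordinates, at 308 bp and 78 bp from it.
Fgf12, chr16:28753244-28753493, minus strand: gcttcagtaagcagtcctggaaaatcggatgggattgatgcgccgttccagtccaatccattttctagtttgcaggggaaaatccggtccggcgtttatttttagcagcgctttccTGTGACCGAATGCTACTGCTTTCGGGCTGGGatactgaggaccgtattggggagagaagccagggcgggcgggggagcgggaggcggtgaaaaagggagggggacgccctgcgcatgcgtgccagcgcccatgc
Sez6l, chr5:112577199-112577448, minus strand: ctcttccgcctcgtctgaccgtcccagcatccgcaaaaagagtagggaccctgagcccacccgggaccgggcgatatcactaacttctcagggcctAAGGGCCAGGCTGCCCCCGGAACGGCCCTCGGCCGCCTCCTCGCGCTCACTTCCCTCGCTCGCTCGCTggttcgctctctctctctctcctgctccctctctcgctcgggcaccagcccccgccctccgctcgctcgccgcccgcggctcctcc

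The palindromic estrogen response element, GGTCA and TGACC with any 3 bases between them, was searched for on both strands, which read the same. A single arm of it, GGTCA or TGACC, was searched for as well, and that search also counts the arms of a full element. The full element was in 0 of the 10 windows and in 0.0517% of 21263 windows of protein-coding genes. An arm was in 4 of the 10 and in 39.4% of all windows. In the Fgf12 sequence above the TGACC falls within the capitals, and in the Sez6l sequence it lies outside them. Any region overlapped 33.3% of all windows, and an estradiol-only region 0.127%.

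The 7 genes with the most similar pattern were those that also had 2 estradiol-only regions, ordered by the median −log10 q of the lower of their 2 regions. They were Dpp6 (7.51), a partner subunit of neuronal potassium channels, Med13l (4.85), of the Mediator complex, and Grik1 (4.42), a kainate receptor subunit. Then came Pgr (4.36), the progesterone receptor, Myt1l (3.71), a neuronal transcription factor, Greb1 (2.56), a gene induced by estrogen in breast and uterus, and 4930591A17Rik (2.28). By the same measure Fgf12 had 15.1, Lrp1b 5.62, Myo3b 4.88, Sez6l 3.92, Tecrl 2.96, Myo16 2.81 and Pdzrn4 2.47. Fgf12 thus had the highest lower region of all 14 genes. All of the comparison genes except 4930591A17Rik fell within the range of the 7. Pgr and Greb1, textbook estrogen targets, were thus not set apart by this measure. For the higher region of each pair, the median −log10 q had a median of 17.1 over the other 7 genes, from 4.64 to 33.0. Over the 7 described it was 5.75, from 3.12 to 34.7. For the lower region these medians were 4.36 and 3.92. The differences in height were not tested. The regions of the other 7 genes were 11.1 to 551 kb apart, with a median of 41.2 kb against 96.0 kb here. Without estradiol replicate 1 or without vehicle replicate 2, the smallest gap per gene of the 7 had a median of 46.9 kb. Some of them then had 3 regions, so this is not over the same pairs. The difference between 41.2 kb and 96.0 kb was not tested.

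**Figure D5:**
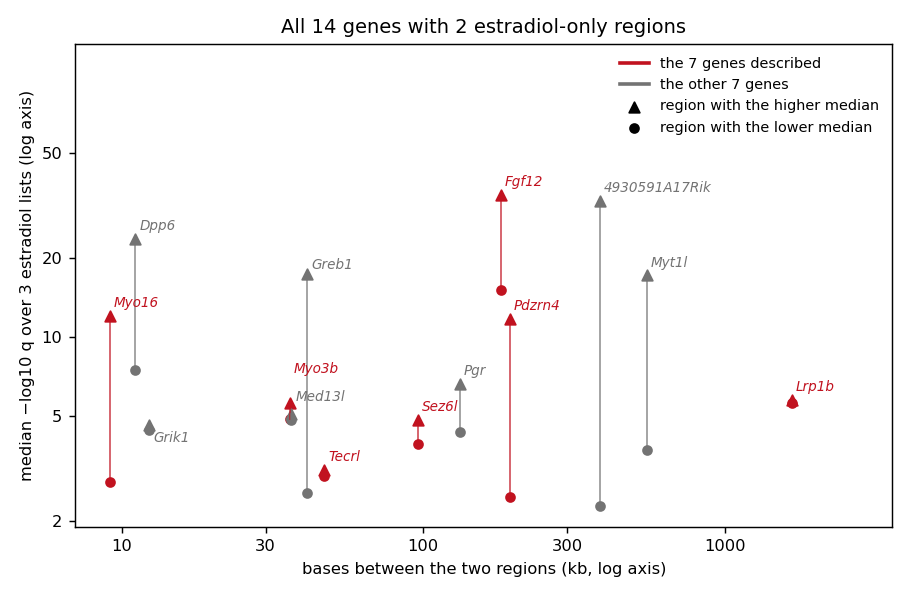
Median −log10 q over the 3 estradiol lists (log axis) of both regions of each gene with 2 estradiol-only regions, against the distance between the regions in kb (log axis). Triangles are the region with the higher and circles that with the lower median, in red for the 7 genes described and grey for the other 7. The circle of Fgf12, at 15.1, is the highest of the 14, and Lrp1b has the widest gap.

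Relatives and known partners of the 7 proteins were looked at from 8 lists by family, 53 genes without the 7 themselves, and all 53 were found in the RefSeq table. Of these, 45 had a region (background 60.4% of genes), 2 had an estradiol-only region (background 1.22% of genes) and 1 a vehicle-only region (background 0.201%). None of 3 other FGF homologous factor genes, 8 other LDL receptor family genes, 22 other unconventional myosins, 4 relatives of Tecrl, 3 of Pdzrn4 or 2 of Sez6l had an estradiol-only region. At that background these counts cannot show a lack. Both genes that had one were partners. Scn2a, of the sodium channels that Fgf12 products bind, had −log10 q of 2.08, 3.73 and 6.63 in estradiol replicates 1, 2 and 3 at 65616308 to 65616432 on chromosome 2, 4.33 kb from the gene. Nyap2, of the phosphoprotein family to which the Myo16 product is also counted, had 3.26, 8.32 and 12.5 at 81482981 to 81483162 on chromosome 1, 115 kb from the gene. The vehicle-only region lay inside Myo10, with 5.19, 2.12 and 3.03 in vehicle replicates 1, 2 and 3. A region in 2 of 3 estradiol and 0 of 3 vehicle lists was found at 7 of the 53 genes (background 4.6%), and a region in all 6 lists at 10 (background 12.2%).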

How the data were processed

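The 6 peak lists, 1 per library, are the authors' own. MACS2, Bowtie2, SAMtools, Picard, deepTools and cutadapt are named, without versions, in the submitters' processing notes, with build mm10. No source used here states whether a control library entered the calls. The deposited columns hold an integer score (10 times the −log10 q, rounded down), a fold enrichment ratio at the summit, the −log10 p and the −log10 q, and the summit position. Peak names carry q0.01 and the number 25, which no source used here explains. These values were used within a list to describe and rank peaks.

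Summit fragments were estimated as the whole number matching the deposited fold and −log10 p under a Poisson tail with a pseudocount of 1 (within 0.0002 for 99.99% of peaks in the list with the fewest matches). They assume that formula. Regions, assignment and presence are as the report states, with gene spans from RefSeq GRCm38.p6. Where gene spans overlapped, the shortest was used. No statistical test was run. The steps were tested on simulated data. Named regions were the paired ones, others in at least 3 libraries, the highest where a gene had none, and at most 10 similar genes. Regions in exactly 2 libraries and the Myo16 cluster were named after their values were seen. The genes, lists and settings were chosen with earlier results of these data known. Python 3.11.15, pandas 2.3.3, numpy 2.4.6 and scipy 1.17.1 were used.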

Additional observations from a re-analysis of the deposited data

How the results depend on the processing

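Many of the paired peaks were low. With −log10 q of at least 3 the 7 genes held 7 estradiol-only regions, 1 gene (Fgf12) had 2, and 75 regions were left in all. With −log10 q of at least 5, added after seeing the data, these were 4, 1 and 40, and with lists of equal length (5421 peaks) 3, 1 and 35. Over all regions the 290 estradiol-only ones became 210, 114 and 113 under these settings. Taking the gene span alone gave 7, 2 and 74, and 4 genes had 2 within 100 kb. Stricter thresholds, shorter lists and smaller territories can only hold fewer peaks. The difference in regions held per library, 23.3 with the pairs counted, was 10.0 at −log10 q of at least 5 and 9.33 with lists of equal length. The pairs are in every estradiol and no vehicle list by the rule, which fixes most of the 23.3. With the pairs left out and all peaks used it was 9.33. Nothing is read from this difference. Vehicle-only regions, 0 as reported, were 2 when 2 of 3 libraries sufficed, and 0 to 2 over the left-out libraries. In replicate 3 alone, 47 regions of the 7 genes were estradiol-only and 26 vehicle-only, against 8024 and 11054 over all regions. The 14 paired regions are among the 47 by the rule that chose the genes, so nothing is read from this contrast. Replicates 1 and 2 alone held 73 regions, 14 of them estradiol-only, with at least 2 at 5 genes. Over all regions 1038 were estradiol-only under this setting. These 14 were not the same set, with 3 each at Fgf12 and Myo16 and 1 each at Myo3b and Tecrl. Merging within 100 bp or 500 bp left 14 estradiol-only regions, Tecrl losing 1 and Myo16 gaining 1.

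Leaving out each library gave 13 to 19 estradiol-only regions, 5 to 7 genes with at least 2, and 93 to 112 regions. The difference in regions held per library was then 16.5 to 30.8, again with the pairs counted, so nothing is read from it. Over all regions the 290 estradiol-only ones became 1003, 540 and 479 without estradiol replicate 1, 2 or 3. They became 303, 393 and 653 without vehicle replicate 1, 2 or 3. Without an estradiol library the rule asks for less, so a chosen region is lost only where its merged peaks come apart. Without vehicle replicate 1, 2 or 3 the estradiol-only count, which cannot fall when vehicle peaks are removed, was 14, 15 and 14. The median spacing was 96.0 kb as reported. Taken as the smallest gap per gene with at least 2 regions, it was 46.9 kb without estradiol replicate 1 or vehicle replicate 2. It was 181 kb without estradiol replicate 3, where Myo3b and Tecrl had only 1 region and did not enter. The replicate block, which pairs libraries by number, gave 21 estradiol-only and 3 vehicle-only regions, against 1943 and 1203 over all regions. It asked for an estradiol peak without a vehicle peak at 2 or more numbers and the reverse at none. Each paired region meets this by the rule that chose it, so all 7 genes kept 2 or more by construction. The planned search for response element letters inside the regions was not run, as no genome sequence was used here.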

Other observations

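Most of these genes are long. The 7 gene spans ran from 77.1 to 2058 kb with a median of 390.1 kb, against a median of 17.2 kb over 21887 protein-coding genes, and each gene held 12 to 27 regions against a median of 2 over the genes with any. Of 368 genes at least as long as the median of the 7, 38 (10.3%) had an estradiol-only region and 7 had 2. Those with 2 were Fgf12, Lrp1b, Myo16 and Myo3b, which were chosen for their pairs, and Dpp6, Grik1 and Myt1l. Over all 21887 genes, 266 (1.22%) had an estradiol-only region and 14 (0.064%) had 2. The 368 genes held a median of 10 regions. The part of length in the pairs was not tested.

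The region nearest to a paired region often belonged to vehicle lists alone. This was so at 9 of the 14 (64.3%), against 88 of the other 276 estradiol-only regions (31.9%). All 4 paired regions with a neighbour within 10 kb, both of Myo16 and 1 each of Tecrl and Sez6l, had such a vehicle peak as the nearest. When neighbours shared with estradiol lists were counted too, the shares were closer. The nearest region then held a vehicle peak at 10 of the 14 (71.4%), against 170 of the other 276 (61.6%). The first measure was chosen after seeing the data, and neither difference was tested.

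Of the 252 genes with exactly 1 estradiol-only region, 64 had at least 1 further region that missed the rule by 1 library. Such a region was in 2 of 3 estradiol and 0 of 3 vehicle lists, or in 3 of 3 and 1 of 3. Over all protein-coding genes 4.6% had a region of the first kind, and the share for both kinds was not computed. The 252 genes were picked by the same contrast, so nothing is read from this count.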
